A study of Mus musculus with 10 samples.

Results

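The genes described here are *Tfr2*, which encodes transferrin receptor 2, and 9 further genes of iron uptake, storage and export: *Tfrc*, *Trf*, *Fth1*, *Ftl1*, *Slc40a1*, *Slc11a2*, *Hfe*, *Steap3* and *Ireb2*. They are 10 of the 27267 genes listed for interscapular brown adipose tissue (iBAT), the thermogenic fat depot between the shoulder blades. *Tfr2* was chosen because it was among the genes that differed most between genotypes in these libraries, so its genotype difference is given as a description with no test. The other 9 genes were chosen by name, to see whether iron genes shared that difference. All 10 passed the filter, a mean of at least 10 normalized counts, and were fitted in a test of 13714 genes.

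RNA was sequenced from iBAT of 5 wild-type (WT) mice and 5 mice labelled *Mgp*-KO, all C57BL/6 males of 4 weeks on a chow diet with a regular light and dark cycle. *Mgp* encodes matrix Gla protein, an inhibitor of bone morphogenetic proteins, and its deletion in the KO mice is global, so every cell type of the mouse carries it and not the fat alone. The values are normalized counts, which are the reads of a gene divided by the size factor of the library. Reads counted on genes came to between 9253793 and 22252260 per library. The labels do not say that same-numbered mice were littermates, and the p-values here measure the spread between these libraries.

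Some libraries stood apart or went against their labels. Replicates 4 and 5 of both genotypes held fewer reads (9253793 to 13281873, against 19616366 to 22252260 in replicates 1 to 3) and a larger share of reads on mitochondrial ribosomal RNA (6.5% to 16.7%, against 0.771% to 1.72%). The *Mgp*-KO-labelled libraries 4 and 5 had *Mgp* normalized counts of 500 and 331, where *Mgp*-KO-labelled libraries 1 to 3 had at most 0.821 and WT had 466 to 1146. The group is therefore called the *Mgp*-KO-labelled libraries, and any direction between genotypes rests on those labels. WT 2 had an *Xist* normalized count of 5094, which goes against its male label, where the other 9 libraries had at most 44.0. In the library labelled *Mgp*-KO 4 the sum of 12 erythroid genes was 101887, against 3037 to 26484 in the other 9 libraries, and that of 8 endothelial genes was 53976, against 18244 to 30099. The defining markers of the tissue were present, since *Ucp1*, the uncoupling protein of brown fat, had normalized counts of 38421 to 116019 in WT and 2201 to 15641 in the *Mgp*-KO-labelled group.

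Most cells take up iron bound to transferrin, the carrier encoded by *Trf*. Transferrin binds transferrin receptor 1, encoded by *Tfrc*, the complex is taken into endosomes, STEAP3 reduces the released iron and DMT1, encoded by *Slc11a2*, carries it into the cytosol. Ferritin, a shell of heavy (*Fth1*) and light (*Ftl1*) chains, stores iron, and ferroportin, encoded by *Slc40a1*, is the known iron exporter of mammalian cells. When iron is scarce, the iron regulatory proteins (one of which is encoded by *Ireb2*) bind iron-responsive elements, which are RNA hairpins that stabilise the *Tfrc* transcript from its 3′ UTR and block translation of the ferritin and ferroportin transcripts from their 5′ UTRs. Transferrin receptor 2 and HFE are best known from hepatocytes, where they take part in sensing transferrin iron and controlling the hormone hepcidin, and transferrin receptor 2 is also made by erythroid precursors. Brown fat is rich in mitochondria, whose heme and iron-sulfur proteins need iron.

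The elements that link several of these genes to cellular iron are shown first. Among the genes that hold one, its place parts those whose RNA level is known to follow iron from those where iron acts on translation. One transcript per gene was searched from the GENCODE annotation of GRCm38 (mm10), and also every other coding transcript of the 10 genes, on the transcript strand, for C, 5 bases, the loop CAGTGN, and 5 bases that can pair with those before the loop, G-T pairs included. The hairpins are printed 5′ to 3′ with the 6-base loop in capitals.
Tfrc 3′ UTR, chr16:32631218-32631247, forward strand: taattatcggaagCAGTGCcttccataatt
Tfrc 3′ UTR, chr16:32631597-32631626, forward strand: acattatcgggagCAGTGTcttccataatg
Tfrc 3′ UTR, chr16:32631662-32631691, forward strand: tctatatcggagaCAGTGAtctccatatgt
Tfrc 3′ UTR, chr16:32631709-32631738, forward strand: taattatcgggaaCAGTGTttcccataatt
Fth1 5′ UTR, chr19:9982731-9982760, forward strand: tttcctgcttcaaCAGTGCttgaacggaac
Ftl1 5′ UTR, chr7:45459779-45459808, reverse strand: tgtcttgcttcaaCAGTGTttgaacggaac
Slc40a1 5′ UTR, chr1:45925465-45925494, reverse strand: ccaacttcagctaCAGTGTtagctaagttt

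*Tfrc* held 4 such hairpins in its 3′ UTR, and *Fth1*, *Ftl1* and *Slc40a1* held 1 each in the 5′ UTR. Windows of the same length, taken from the genes whose UTR was at least as long, held a match in 1.09% for the 3′ UTR of *Tfrc*. For the 5′ UTRs the shares were 0.143% for *Fth1*, 0.0731% for *Ftl1* and 0.181% for *Slc40a1*. Each share takes in the gene itself, which was the only match for *Fth1* (1 of 699 genes). No match was found in *Tfr2*, *Trf*, *Slc11a2*, *Hfe*, *Steap3* or *Ireb2*, which says only that these letters are not in the UTRs searched. A hairpin with a mismatch or an extra base in the paired stretch would be missed, so none of these genes is shown to lack an element.

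The levels of the 10 genes spanned several orders of magnitude. Per length, with the reads of each gene divided by its exon length and scaled to a common total in each library, *Fth1* had a WT median of 1318 and stood above every other member. *Ftl1* followed with 87.8, then *Tfrc* with 41.4, and *Hfe*, *Ireb2*, *Slc11a2*, *Slc40a1* and *Steap3* lay between 16.5 and 12.1. The level of *Ftl1* is uncertain, for reasons given with its counts below. *Tfr2*, with 1.49, and *Trf*, with 0.838, were the lowest. In this order the WT ranges of neighbours overlapped, except between *Fth1* and *Ftl1* and between *Steap3* and *Tfr2*.

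*Tfr2* was lower in every library labelled *Mgp*-KO than in any WT library. It lies at chr5:137569840-137587481 on the forward strand of GRCm38. Its normalized counts in WT 1 to 5 were 28.6, 26.2, 43.4, 71.8 and 51.9, from 40, 35, 59, 49 and 30 reads. In *Mgp*-KO-labelled libraries 1 to 5 they were 5.28, 9.18, 9.03, 6.48 and 7.03, from 7, 12, 11, 4 and 6 reads. The gap between the groups ran from 9.18 to 26.2, and WT 4 and 5 were the highest. The 95% counting interval (exact Poisson) of the highest library labelled *Mgp*-KO was 4.74 to 16.0, and that of the lowest WT library was 18.3 to 36.4. The largest upper bound in the group labelled *Mgp*-KO was 16.6. These intervals cover counting error only, since reads from amplified libraries without molecular identifiers are not independent molecules. *Tfr2* was chosen for this difference, so the gap between the intervals is no test of it.

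The mean normalized count of *Tfr2* was 44.4 ± 18.6 (SD, n = 5) in WT and 7.40 ± 1.68 (SD, n = 5) in the *Mgp*-KO-labelled group, a ratio of 6.00. The log2 fold change in limma, on the scale of log2(normalized count + 1), was -2.36 (SE 0.36), and DESeq2 on the reads gave -2.55 (SE 0.44). Of the 13714 tested genes 32, or 0.233%, had a log2 fold change as low or lower. A normalized count on this scale understates the change of a gene with so few reads, and with a pseudocount of 10 the value was -1.58. The ratio of the means was 4.18 in replicates 1 to 3 and 9.16 in replicates 4 and 5, and the groups did not overlap in either set, as held for 15.1% of all tested genes in replicates 1 to 3 and 21.3% in replicates 4 and 5 with WT the higher. In all 10 libraries 290 tested genes, or 2.11%, were lower in every library labelled *Mgp*-KO, and *Tfr2* was chosen from among them.

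In these bulk libraries, fewer cells of a type and less RNA per cell cannot be told apart. The markers of the cell types best known for *Tfr2* are given beside it. Of 11 hepatocyte genes, 6 were under 10 in every library and *Alb* was at most 2.86 except in the library labelled *Mgp*-KO 4, where it was 103.6. Leaving out *Cyp2e1*, which adipose tissue also expresses, the summed hepatocyte level was at most 8.79 in WT and at most 3.77 in the *Mgp*-KO-labelled group other than 4, where it was 220.2. *Tfr2* in the library with the hepatocyte reads was 6.48, within the range of the other 4 libraries of its group. The erythroid regulators *Klf1* and *Gata1* were at most 5.86 in every library. The summed erythroid level was 6515 to 20069 in WT and 3037 to 101887 in the *Mgp*-KO-labelled group, and 0 of the 9 erythroid genes tested were called between genotypes in limma (0.0656% of all genes) or in DESeq2 (2.71%), which is near the shares over all genes. With the library labelled *Mgp*-KO 4 left out, the log2 fold change of *Tfr2* was -2.32.

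**Figure D1:**
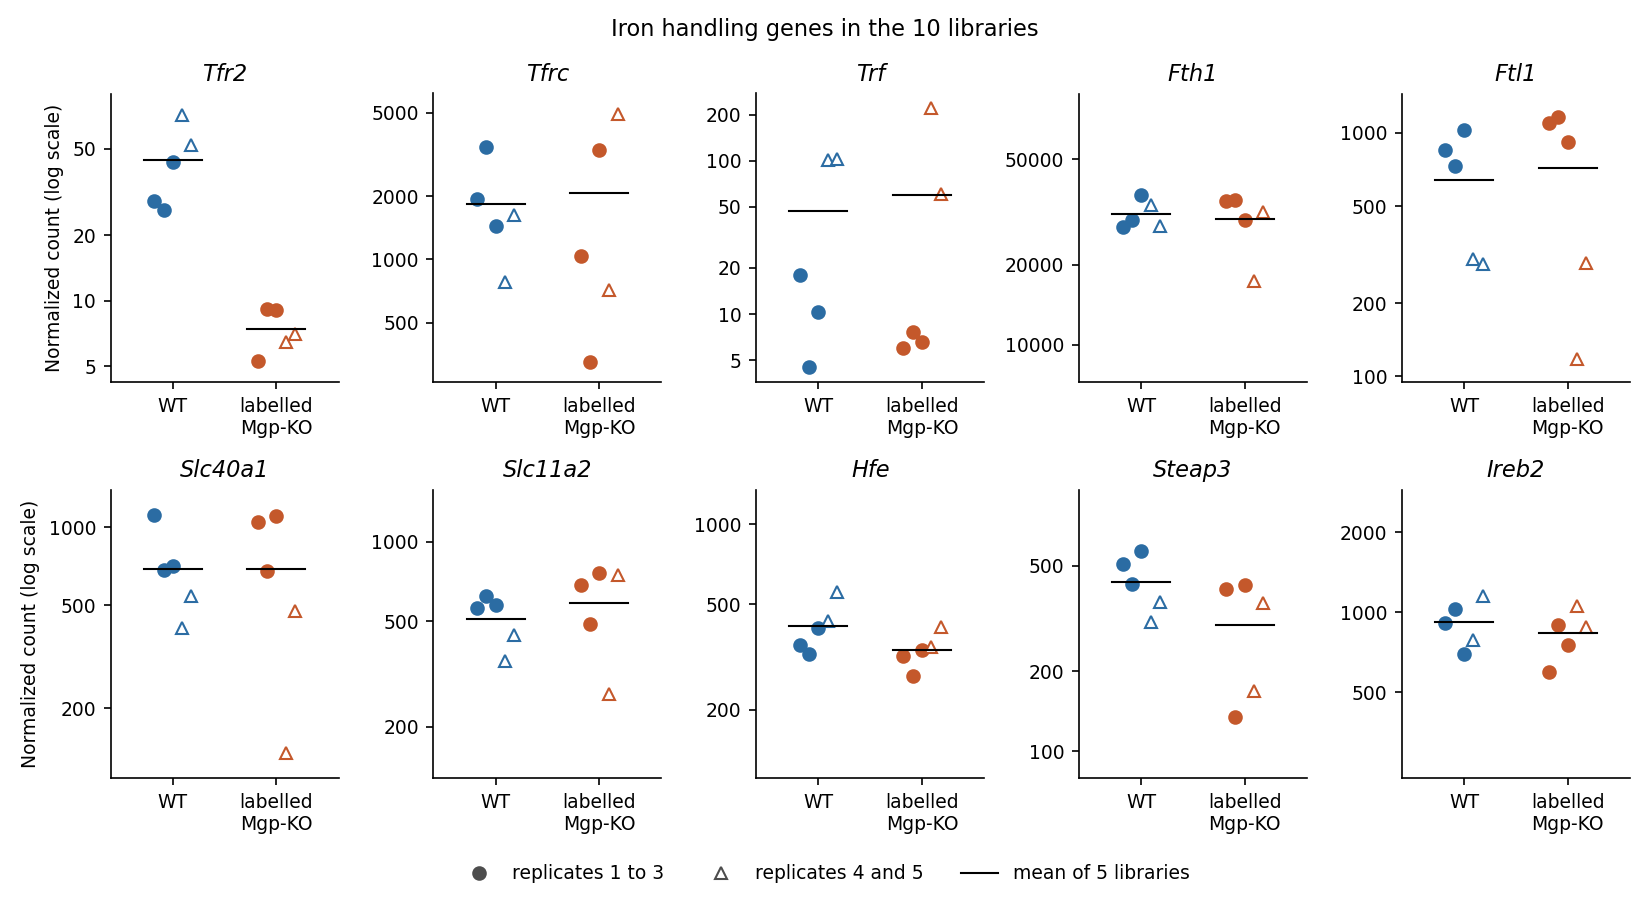
Normalized counts (log scale, a separate axis for each gene) of the 10 iron genes in the 10 libraries, with WT in blue and *Mgp*-KO-labelled libraries in orange, circles for replicates 1 to 3, triangles for replicates 4 and 5, and bars for the mean of 5 libraries. *Tfr2* runs from 26.2 to 71.8 in WT and from 5.28 to 9.18 in the *Mgp*-KO-labelled group, the genotypes overlap in the other 9 genes, and the triangles part from the circles in *Trf*, *Ftl1* and *Slc40a1*.

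None of the other 9 genes differed between genotypes past the threshold. In limma over all 10 libraries 0 of 9 had an adjusted p-value under 0.05 and 0 had an unadjusted p under 0.05, where 0.0656% of all tested genes passed the adjusted threshold and 10.4% the unadjusted one. On the reads, DESeq2 called 0 of 9, against 2.71% of all genes, and edgeR 0 of 9, against 0.0219%. WT and the *Mgp*-KO-labelled libraries overlapped in all 9. Their log2 fold changes ran from -0.66 (*Steap3*) to 0.13 (*Slc11a2*) with a median of -0.19, beside 0.03 for all tested genes, and 8 of 9 were below 0, as were 47.3% of all genes. The count below 0 was 5 of 9 within replicates 1 to 3, within replicates 4 and 5, without the library labelled *Mgp*-KO 4 and in DESeq2. The adjusted p-values in limma were between 0.546 and 0.973, and at least 0.172 over the 20 alternative settings.

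*Tfrc*, on chr16:32608920-32632794, is the member whose RNA is best known to rise when iron is scarce. In WT 1 to 5 its normalized counts were 1947, 3413, 1446, 784 and 1620. In *Mgp*-KO-labelled libraries 1 to 5 they were 1037, 325, 3314, 717 and 4930. Both the lowest and the highest library carried the *Mgp*-KO label, and the highest stood 15.2-fold above the lowest. After the genotype and set means were removed, the SD of *Tfrc* was 1.34 on the log2 scale, larger than that of 98.0% of tested genes, whose median was 0.33. The log2 fold change between genotypes was -0.32 with a 95% interval of -1.79 to 1.14 in limma, and 0.17 in DESeq2, so its sign depended on the fit. In replicates 1 to 3 alone it was -1.03, and in replicates 4 and 5 alone 0.74. A difference of 1 on the log2 scale in *Tfrc*, in either direction, was therefore not excluded by these libraries.

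The library with the lowest *Tfrc*, labelled *Mgp*-KO 2, was also the lowest for *Steap3* and *Hfe*. *Steap3* encodes the endosomal iron reductase, and its normalized counts were 510, 429, 571, 308 and 365 in WT and 408, 135, 425, 168 and 362 in the *Mgp*-KO-labelled group. The 3 values around 400 in the latter lay within the WT range, and *Mgp*-KO-labelled libraries 2 and 4 lay below it. The log2 fold change was -0.66 (SE 0.34, 95% interval -1.41 to 0.09, adjusted p = 0.546 in limma), the largest of the 9 genes, with -0.80 in replicates 1 to 3 alone and -0.44 in replicates 4 and 5 alone. The library labelled *Mgp*-KO 2 held much skeletal muscle RNA, as did that labelled *Mgp*-KO 5, with *Acta1* at 8838 and 8182 against at most 1613 in the other libraries. *Steap3* in those libraries was 135 and 362, and the part of muscle in these values was not tested.

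*Slc11a2*, which encodes the importer DMT1, had normalized counts of 563, 624, 578, 355 and 443 in WT and 683, 487, 759, 265 and 746 in the *Mgp*-KO-labelled group. The highest and the lowest values were both in *Mgp*-KO-labelled libraries, and the log2 fold change was 0.13 (SE 0.30, 95% interval -0.52 to 0.78 in limma). *Trf*, the transferrin gene on chr9:103204001-103230444, had a log2 fold change of -0.19 (SE 1.11, 95% interval -2.62 to 2.24 in limma) between genotypes. In DESeq2 the value was 0.37, and the libraries of *Trf* are given with the replicate sets.

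The ferritin genes carried no genotype difference past the threshold. *Fth1* had normalized counts of 27870, 29551, 36794, 33519 and 28095 in WT and 34808, 35041, 29473, 17384 and 31580 in the *Mgp*-KO-labelled group. Of these, 9 lay between 27870 and 36794, and the library labelled *Mgp*-KO 4 stood alone below. The log2 fold change of *Fth1* was -0.11 (SE 0.25, 95% interval -0.66 to 0.45 in limma), and 0.08 without the library labelled *Mgp*-KO 4. *Ftl1* had a log2 fold change of -0.09 (SE 0.63, 95% interval -1.48 to 1.29 in limma). Within replicates 1 to 3 the *Ftl1* value was 0.29 (SE 0.16, adjusted p = 0.337 in limma), within replicates 4 and 5 it was -0.67 (SE 0.48, adjusted p = 0.687), and without *Mgp*-KO-labelled libraries 4 and 5 it was 0.90 (adjusted p = 0.289). The last fit keeps WT 4 and 5 and so takes in the set difference of *Ftl1*. The sign of *Ftl1* turned in 8 of the 20 alternative settings. The ferritin light chain pseudogenes *Ftl1-ps1*, *Ftl1-ps2* and *Ftl2-ps* were listed at no more than 1.73, 3.24 and 0.821, which does not show whether reads that match several copies were lost from *Ftl1*, so its level is uncertain in this respect. Exons of *Ftl1* are also overlapped on the opposite strand by *Gm10252*, listed at 0 to 27.9, and the strand setting is not given.

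*Slc40a1*, the exporter gene on chr1:45908068-45926523, had nearly equal means, 693.9 ± 267.3 (SD, n = 5) in WT and 688.8 ± 404.4 (SD, n = 5) in the *Mgp*-KO-labelled group. Its log2 fold change was -0.25 (SE 0.51, 95% interval -1.37 to 0.87 in limma), and 0.25 without the library labelled *Mgp*-KO 4. *Hfe*, the partner of transferrin receptor 2 in hepatocytes, had normalized counts of 349, 324, 407, 432 and 555 in WT and 319, 269, 334, 345 and 410 in the *Mgp*-KO-labelled group. The ranges overlapped from 324 to 410. The log2 fold change of *Hfe* was -0.29 (SE 0.19, 95% interval -0.71 to 0.13, adjusted p = 0.645 in limma), with -0.23 and -0.38 within the sets. *Ireb2*, the gene for iron regulatory protein 2, had the smallest ratio of highest to lowest library among the 10 genes, from 597 to 1151, with a log2 fold change of -0.13 (SE 0.20, 95% interval -0.58 to 0.31 in limma).

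With a term for the replicate sets in limma the fold changes stayed as they were, since the sets hold the genotypes equally, and 0 of the 9 genes were called, where 2.36% of all tested genes were. Their unadjusted p-values were 0.0598 or above, and DESeq2 with this term called 0 of 9, against 8.72% of all genes. Within replicates 1 to 3 alone 0 of 9 were called in limma (3.54% of all genes) and in DESeq2 (10% of all genes). Within replicates 4 and 5, with 2 libraries per group, 0 of 9 were called in limma (0% of all genes) and in DESeq2 (0.386%). In each of these fits 0 of 9 had an unadjusted p under 0.05 in limma, where the shares of all genes were 19.3% with the set term, 21.99% for replicates 1 to 3 and 6.23% for replicates 4 and 5. The interaction of genotype and set was called for 0 of the 9 members other than *Tfr2* in limma (0.00729% of all genes) and in DESeq2 (0.459%). Of these 9, 0 had an unadjusted p under 0.05 in limma, where 10.3% of all genes did. Without the library labelled *Mgp*-KO 5, which leaves 1 library of that label in replicates 4 and 5, *Ftl1* and *Slc40a1* passed in the interaction test, as did 11.8% of all genes, and in that fit the lone library is assumed to vary like the other groups.

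**Figure D2:**
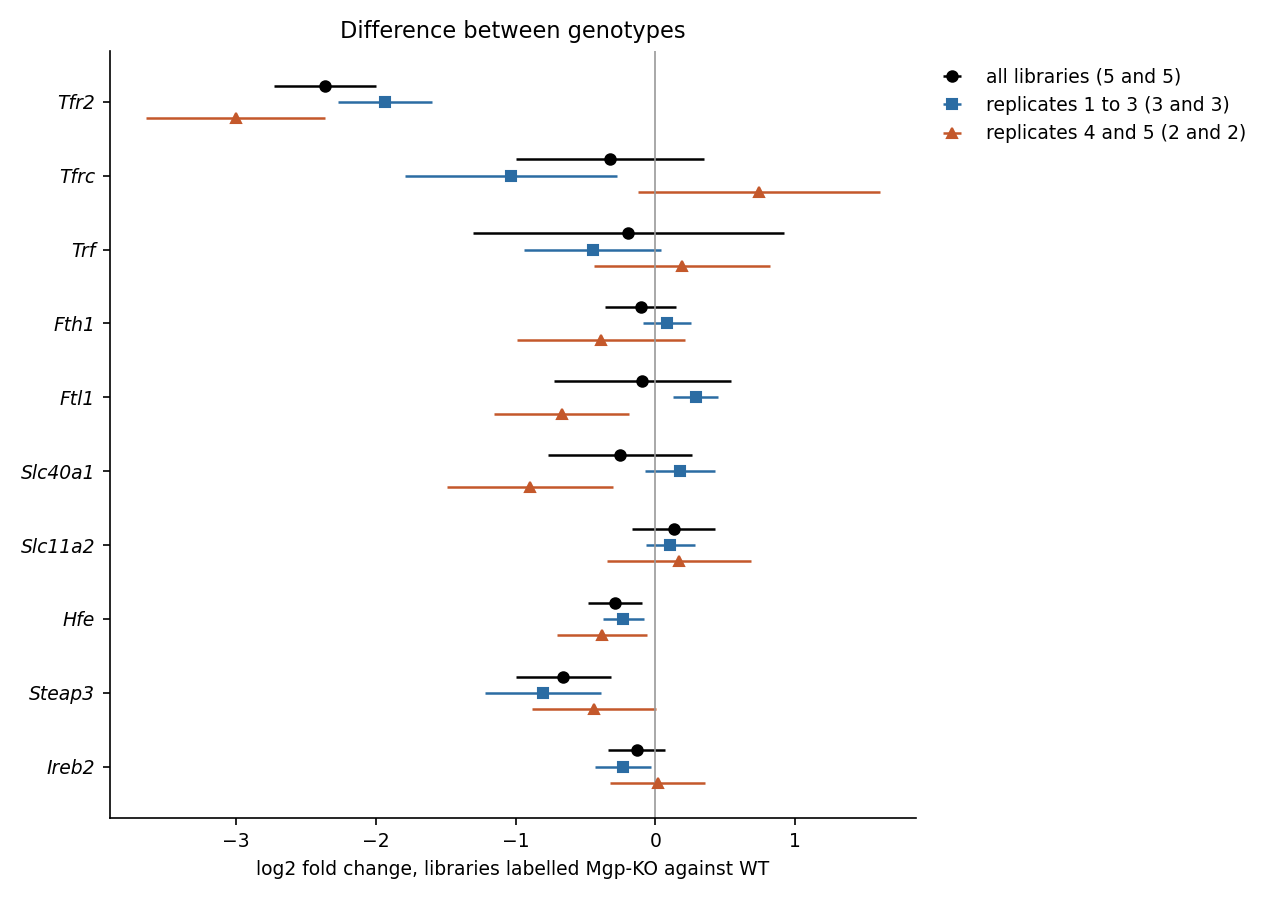
Log2 fold change of each iron gene in the *Mgp*-KO-labelled group against WT (points, with bars for the SE from limma), over all libraries in black, within replicates 1 to 3 in blue and within replicates 4 and 5 in orange. *Tfr2* lies at -2.36, -1.93 and -3.002, while *Tfrc*, *Trf*, *Fth1*, *Ftl1*, *Slc40a1* and *Ireb2* change sign between the sets.

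*Tfr2* was chosen for its difference, so its place apart from the other 9 genes is no result, and 0 calls among 9 genes is near the share over all genes. A further 106 listed iron genes in 7 lists were read, of which 91 could be tested. In limma over all libraries 0 of 91 were called (0.0656% of all genes) and 12 had an unadjusted p under 0.05 (10.4% of all genes). DESeq2 called 3 of 91 (2.71% of all genes), *Steap4*, *Iba57* and *Fam96b*, all lower. With the set term limma called 2 of 91 (2.36% of all genes), both lower, and DESeq2 called 11 (8.72% of all genes), of which 7 were lower. Within replicates 1 to 3 limma called 3 of 91 (3.54% of all genes), *Steap4* and *Hp* lower and *Heph* higher, and within replicates 4 and 5 it called 0 (0% of all genes). These counts lie near the shares over all genes. The median log2 fold change of the 91 was -0.13, beside 0.03 for all genes, and 53 were below 0 (47.3% of all genes). It was 0.04 with 43 below 0 within replicates 1 to 3, -0.30 with 63 below 0 within replicates 4 and 5, and 0.02 with 43 below 0 without the library labelled *Mgp*-KO 4, which was the lowest library for 42 of the 91. Of the 91, 3 were lower in every library labelled *Mgp*-KO and 1 was higher, where 2.11% and 1.39% of all tested genes were.

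Among 13 tested genes of iron uptake and reduction, *Steap4*, a metalloreductase gene of adipose tissue, was the 1 called with the set term in limma, while DESeq2 called 3 with it, 2 of them lower (8.72% of all genes). Its normalized counts were 2777, 2241, 2513, 1584 and 2701 in WT and 1607, 1208, 1503, 924 and 1349 in the *Mgp*-KO-labelled group. All WT libraries other than WT 4 were above the whole other group. The log2 fold change was -0.84 (SE 0.21 without and 0.18 with the set term; adjusted p = 0.164 and 0.0352 in limma, 0.00799 in DESeq2 without it), with -0.81 and -0.89 within the sets. The haptoglobin gene *Hp* had the value -1.44 (adjusted p = 0.497 in limma) over all libraries, with -2.25 in replicates 1 to 3 alone (adjusted p = 0.0382 in limma), where it was 6714 to 8770 in WT and 733 to 2664 in the group labelled *Mgp*-KO, -0.21 in replicates 4 and 5 alone and -0.79 in DESeq2. It was also called when *Mgp*-KO-labelled libraries 4 and 5 were left out, a fit that keeps WT 4 and 5 and so takes in the set difference of *Hp*, which was 1.79.

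Of 30 tested genes of mitochondrial iron import and iron-sulfur cluster assembly, 24 were below 0 (47.3% of all genes), with a median of -0.23 (0.03 for all genes), and 1 was called with the set term in limma (2.36% of all genes), where DESeq2 called 4, all lower (8.72% of all genes). The gene called in limma was *Iba57*, a factor of late mitochondrial iron-sulfur cluster assembly. Its normalized counts were 398, 383, 440, 421 and 415 in WT and 246, 213, 297, 176 and 231 in the *Mgp*-KO-labelled group. The groups did not overlap, and the log2 fold change was -0.84 (SE 0.17 without and 0.15 with the set term; adjusted p = 0.0741 and 0.0178 in limma, 2.31e-04 in DESeq2 without it), with -0.70 and -1.05 within the sets. The median of the list was -0.11 in replicates 1 to 3 alone and -0.54 in replicates 4 and 5 alone. The library labelled *Mgp*-KO 4 was the lowest of the 10 for 19 of the 30 genes, as for 24.2% of all tested genes, and without it the median was -0.07 with 19 of 30 below 0. Beside this list, 9 of the 10 brown adipocyte genes were below 0, from -3.64 (*Elovl3*) to -0.13 (*Fabp4*) with *Ucp1* at -2.70, and *Zic1* was at 0.51. The median of the 10 was -0.40, and 3 were called lower with the set term. Their part in the values of the iron-sulfur genes was not tested.

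In the other lists 0 genes were called over all libraries in limma, without (0.0656% of all genes) or with the set term (2.36%), and DESeq2 with the set term called 2 of 4 export genes, 1 of 11 genes of iron-responsive elements and 1 of 17 of the hepcidin axis (8.72% of all genes), while *Heph* was called higher within replicates 1 to 3 (0.82, adjusted p = 0.0484) and *Abcg2* was called with the replicate number as a block. *Nqo1*, a quinone reductase gene, had the largest value of 11 iron-sensitive redox genes, 1.12 (adjusted p = 0.315), from 17.04 ± 6.96 to 37.5 ± 13.4 normalized counts (SD, n = 5 each), and *Hmox1*, the heme oxygenase gene, had 0.47 (adjusted p = 0.681). Among 4 export genes, *Abcg2*, a transporter of porphyrins among other substrates, had 0.88 (adjusted p = 0.4997) and *Heph*, a ferroxidase gene, 0.70 (adjusted p = 0.413). Among 11 genes of iron-responsive elements and their regulators, *Aco1*, the gene for iron regulatory protein 1, had -0.77 (adjusted p = 0.477) and *Alas2*, the erythroid heme synthesis gene, 0.55 (adjusted p = 0.741). *Alas2* was 2768 in the library labelled *Mgp*-KO 4, the one with the highest erythroid level, and 297 to 1201 in the other 4 of that label, and its value was 0.07 in replicates 1 to 3 alone and 1.27 in replicates 4 and 5 alone. Among 5 storage genes, *Ncoa4*, the ferritin receptor for autophagy, had -0.29 (adjusted p = 0.897) and *Bola2* 0.24 (adjusted p = 0.720). The hepcidin genes *Hamp* and *Hamp2* were listed at no more than 3.46 and 3.06, from at most 4 reads in a library. Of 17 tested genes of the hepcidin axis 13 were above 0 and 4 below (47.3% of all genes), led by *Smad1*, an effector of bone morphogenetic proteins, with 0.80 (adjusted p = 0.414), and *Epor*, the erythropoietin receptor gene, with 0.76 (adjusted p = 0.354). In the same contrast all 8 endothelial genes were above 0, with a median of 0.42 and 0 called, and their part in the values of this list was not tested.

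**Figure D3:**
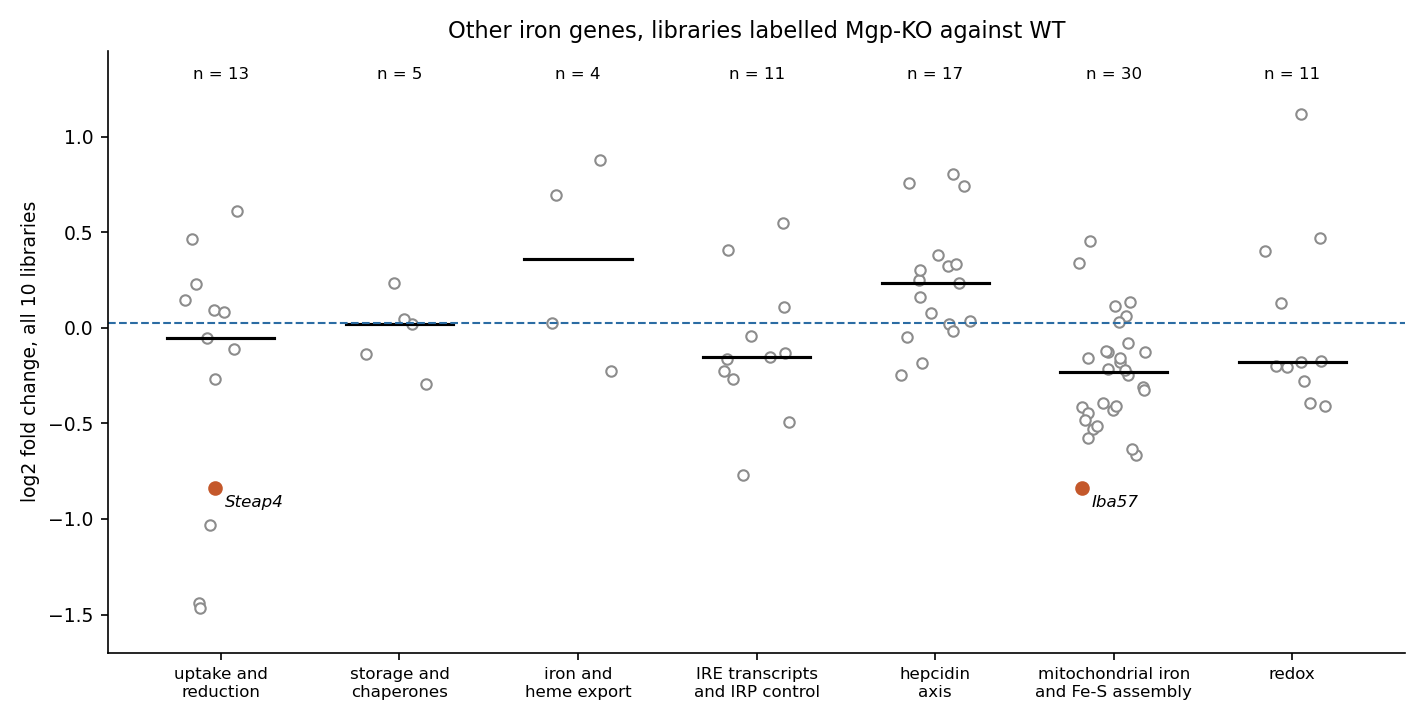
Log2 fold change over all 10 libraries (points, 1 per gene) of the tested genes in 7 lists of iron genes, with black bars for the median of each list, a dashed line for the median of all 13714 tested genes (0.03) and n for the genes tested in each list. Filled points mark the 2 genes called in limma with a term for the replicate sets, *Steap4* and *Iba57*, both at -0.84.

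The 5 genes whose levels over the 10 libraries were most like those of *Tfr2* were in none of the iron lists. Iron genes are few among the 13714 tested (91 in the lists and the 9 other members), so this count is no result. Pearson's r on the log2 scale was 0.949 for *Garnl3*, 0.936 for *1700086O06Rik*, 0.934 for *Ddhd2*, 0.932 for *Ppp1r15b* and 0.922 for *1700008J07Rik*, with Spearman's rho from 0.818 to 0.927. In all 5 the *Mgp*-KO-labelled libraries lay below all WT libraries, as for *Tfr2*, and the 10 points share this split and their library depth. After the genotype and set means were removed, the r values ran from 0.0877 to 0.423. Among the other 9 iron genes the r with *Tfr2* was highest for *Hfe*, 0.623, and at most 0.386 for the others. Of the genes nearest *Tfr2* on chromosome 5, *Gm17112* and *Mir6418* were under the filter. None of those tested was called in limma, where 0.0656% of all genes were. *Gnb2* before *Tfr2* had a log2 fold change of -0.05 (adjusted p = 0.954 in limma), and *Mospd3*, *Gm7285* and *Pcolce* after it had -0.37 (adjusted p = 0.832), 0.60 (adjusted p = 0.721) and -0.70 (adjusted p = 0.547).

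Between the replicate sets more genes of all kinds were called, and the count among the iron genes was near the share over all genes. With genotype in the model, 3 of the 10 genes differed between replicates 4 and 5 and replicates 1 to 3 in limma, where 38.2% of all tested genes did. *Trf* was higher (18.3% of all genes) and *Ftl1* and *Slc40a1* were lower (19.9%), and DESeq2 called 4 of 10, against 43.4%. *Trf* passed the filter only through replicates 4 and 5, so its call is no test. In the 3 genes called in limma the sets did not overlap, as was the case in 25.2% of all tested genes. Genotypes are held equally by the sets, and the labels name no batch, so what the sets stand for was not tested.

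*Trf* had normalized counts of 17.9, 4.49 and 10.3 in WT 1 to 3 and 6.03, 7.65 and 6.57 in *Mgp*-KO-labelled libraries 1 to 3. In replicates 4 and 5 they were 101.1 and 102.1 in WT and 220.2 and 61.0 in the *Mgp*-KO-labelled group. The set difference was 3.60 on the log2 scale (SE 0.42 in limma), from 8.82 ± 4.84 (SD, n = 6) to 121.1 ± 68.8 (SD, n = 4). The mean in replicates 1 to 3 was under the filter of 10, so *Trf* passed only through the set where it was high. Its set difference is therefore given as a description with no test. The summed hepatocyte level without *Cyp2e1* was at most 8.79 in WT, so in WT 4 and 5 the *Trf* values near 100 stood beside few hepatocyte reads, while the highest value, in the library labelled *Mgp*-KO 4, stood beside 220.2. Exons of *Trf* are overlapped on the same strand by the gene model *Gm20425*, which is not among the genes listed. Whether the annotation used for counting held it is not known, so reads in the shared exons may not have been counted.

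*Ftl1*, on chr7:45457944-45459884, had normalized counts of 849, 731 and 1028 in WT 1 to 3 and 1096, 1163 and 916 in *Mgp*-KO-labelled libraries 1 to 3. In replicates 4 and 5 they were 303 and 291 in WT and 118 and 293 in the *Mgp*-KO-labelled group. The set difference was -2.01 (SE 0.26, adjusted p = 2.76e-04 in limma). *Fth1*, the other ferritin chain, had a set difference of -0.26 (SE 0.23, adjusted p = 0.399 in limma). The difference between the 2 chains in this respect was not tested.

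*Slc40a1* had normalized counts of 1121, 685 and 709 in WT 1 to 3 and 1048, 682 and 1104 in *Mgp*-KO-labelled libraries 1 to 3. In replicates 4 and 5 they were 410 and 543 in WT and 134 and 476 in the *Mgp*-KO-labelled group. The set difference was -1.33 (SE 0.35, adjusted p = 0.0122 in limma). Macrophages are known for high ferroportin and ferritin light chain, and of 9 tested macrophage genes all were below 0 in the same contrast (50.9% of all genes), with a median of -0.32, and 3 were called lower (19.9% of all genes). They ran from -1.21 for *Csf1r*, the macrophage growth factor receptor gene, to -0.0012 for *Lyz2*, the lysozyme gene, with *Mrc1* at -0.03 and *C1qb* at -0.08. Other cell type lists lay above 0 in this contrast, with all 9 erythroid genes (median 1.51, 5 called higher), all 8 endothelial genes (median 0.55, 4 called higher) and all 10 skeletal muscle genes (median 2.995, 0 called), and so did 7 of the 10 brown adipocyte genes (median 0.63, 3 called higher), where 18.3% of all genes were called higher. The part of any of these cell types in the set differences of *Trf*, *Slc40a1* and *Ftl1* was not tested.

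The remaining 7 genes were not called between the sets in limma. *Hfe* was the nearest, with 0.37 (SE 0.14, adjusted p = 0.0561 in limma and 0.0212 in DESeq2), followed by *Slc11a2* with -0.54 (SE 0.25, adjusted p = 0.110 in limma). *Tfr2* had a set difference of 0.38 (SE 0.34, adjusted p = 0.391 in limma) and *Tfrc* one of -0.03 (SE 0.69, adjusted p = 0.978 in limma). *Trf*, *Ftl1* and *Slc40a1* were called in each of the 17 alternative fits of the set contrast, and *Hfe* was added with DESeq2, with a mean of at least 50 and without the library labelled *Mgp*-KO 4, *Steap3* without that labelled *Mgp*-KO 2 and *Slc11a2* without that labelled *Mgp*-KO 5.

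**Figure D4:**
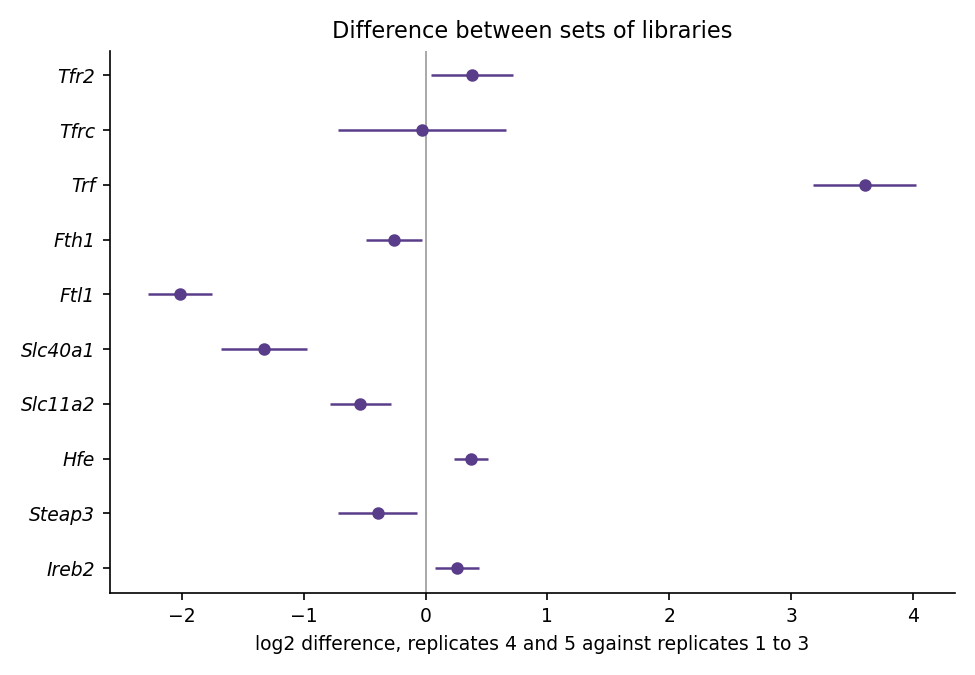
Log2 difference of each iron gene between replicates 4 and 5 and replicates 1 to 3, with genotype in the model (points, with bars for the SE from limma). *Trf* lies at 3.60, *Ftl1* at -2.01 and *Slc40a1* at -1.33, while the other 7 genes lie between -0.54 and 0.38.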

How the data were processed

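The deposited values are a signal per gene (normalized counts), for which the authors aligned reads to mm10 with STAR, counted them on genes and scaled each library by its DESeq2 size factor. The annotation release and the strand setting are not given in the sources used here, so overlapping genes may share reads. All values (100%, tolerance 0.01 reads) were whole multiples of 1 read, and reads were recovered from them. Genes with a mean of at least 10 (13714) were tested with limma 3.58.1 (R 4.3.3, eBayes with trend) on log2(normalized count + 1), with Benjamini-Hochberg adjustment over all of them and a threshold of 0.05. Contrasts were genotype (also with a set term and within replicates 1 to 3 and 4 and 5), set, and their interaction. edgeR 4.0.16 and DESeq2 1.42.0 were run on the recovered reads, and the other alternatives were other pseudocounts, filters, scaling, a replicate block and libraries left out. The fits were tested on simulated data. The members, gene lists and contrasts were chosen with earlier results of these data known, so none of them is independent support. Genes named outside the 10 are those of each list called in the genotype contrast without or with the set term, or else the 2 with the largest fold change, the 5 most like *Tfr2*, its neighbours and the markers beside a result. *Hp*, *Fam96b*, *Xist*, *Ftl1-ps2*, the brown adipocyte and macrophage genes and the genes in the closing observations were named after their values were seen. Gene models are GENCODE M21, in which 94.0% of listed symbols had 1 model, and the 117 iron gene symbols sought, of which 106 were listed, include other names of the same genes.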

Additional observations from a re-analysis of the deposited data

Results flagged for a closer look

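*Trf* in the library labelled *Mgp*-KO 4, with a normalized count of 220.2, stood apart from the other 4 libraries of its group, of which the next was 61.0. The gap was 0.743 of the range of the group, above the critical value of 0.71 (Dixon, 95%). The group was taken whole, although *Trf* was higher in replicates 4 and 5, the set this library belongs to, than in replicates 1 to 3. It was the 1 such case among 20 groups examined (10 genes in 2 genotypes), and chance gives about 1 in 20 of them. The same library had the highest erythroid, endothelial and hepatocyte marker levels other than *Cyp2e1*, and their part in the value was not tested.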

How the results depend on the processing

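No setting called any of the 9 members other than *Tfr2* in the genotype contrast (20 alternatives), with the set term (17), within replicates 1 to 3 (14) or within replicates 4 and 5 (8). *Tfr2* ranged from -2.55 to -1.58, the latter with a pseudocount of 10, and from -2.52 to -2.17 with 1 library left out. It was not tested under a mean of at least 50, where it is filtered out. Of the 91 wider iron genes, DESeq2 called 3 (371 of all 13714 genes) and the replicate block 3 (270 of all genes). The fit without *Mgp*-KO-labelled libraries 4 and 5 called 1 (267 of all genes). That also without WT 2, added after the data were examined, called 1 (97 of all genes), against 0 in the main fit (9 of all genes). The interaction called between 0 and 2 members with 1 library left out. The number of all genes called in the genotype contrast ran from 0 to 371, and it was 0 without WT 2, 3 or 5 or *Mgp*-KO-labelled libraries 1 or 3. Signs turned, none past the threshold, for *Tfrc* with DESeq2 (0.17), edgeR (0.16) and 1 library left out (-0.80 to 0.18), for *Trf* with DESeq2 (0.37), edgeR (0.36) and 1 library left out (-1.01 to 0.30), and for *Ftl1* with DESeq2 (0.16), edgeR (0.15) and 1 library left out (-0.38 to 0.44). Without *Mgp*-KO-labelled libraries 4 and 5, and then also without WT 2, *Trf* had -1.76 and -2.33, *Fth1* 0.091 and 0.074 (-0.18 to 0.075 with 1 library left out), *Ftl1* 0.90 and 0.997, and *Slc40a1* 0.49 and 0.51 (-0.50 to 0.25). Signs held but sizes moved with 1 library left out for *Steap3* (-0.82 to -0.41, the latter without that labelled *Mgp*-KO 2), *Slc11a2* (0.0046 without WT 4 to 0.39 without that labelled *Mgp*-KO 4), *Hfe* (-0.37 to -0.18, the latter without WT 5) and *Ireb2* (-0.22 to -0.017, the latter without that labelled *Mgp*-KO 1). The fits without *Mgp*-KO-labelled libraries 4 and 5 keep WT 4 and 5 and so take in the difference between the replicate sets. For the other settings the cause was not tested. The study's methods speak of 5 pairs of mice, but neither they nor the labels say that a number marks a pair, and the numbers were not taken to pair the mice, since, after subtracting group means, WT and *Mgp*-KO libraries of number 2 correlated at 0.0559 (0.327 to 0.527 for the other numbers), and not every library was most like its own number. The values above 0.3 take in the difference between the replicate sets. After set means were also subtracted, numbers 1 to 3 correlated at 0.0417, -0.202 and -0.398, and numbers 4 and 5 at 0.223 each. With the replicate block, 0 of the 9 members and 270 of all genes were called, against 9 without it. Depth limits *Tfr2* and *Trf*, where 4 to 12 reads lie behind several values. Scaling by upper quartiles moved the median of all genes from 0.03 to 0.02.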

Other observations

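Some iron genes lay outside the comparisons above and were singled out after their values were seen. *Hephl1*, a ferroxidase gene of the hephaestin family, had a mean of 18.4 normalized counts in WT and 0.164 in the *Mgp*-KO-labelled group and was below the filter. The WT mean rested on WT 5, with 48 reads, where WT 1 to 4 had 3, 5, 2 and 1 and the *Mgp*-KO-labelled libraries had 0, 0, 1, 0 and 0. *Slc39a8*, a zinc and iron transporter gene, was the tested iron gene that was higher in every library labelled *Mgp*-KO, with 154 to 203 against 84.8 to 137 normalized counts in WT, and its log2 fold change of 0.61 was not past the threshold (adjusted p = 0.254 in limma, 0.0881 with the set term). *Hspa9*, the mitochondrial chaperone gene of iron-sulfur assembly, had the value -0.48 with groups that did not overlap (adjusted p = 0.499 in limma).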
